A study of Mus musculus with 6 samples.

Results

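Integrins and laminins are a receptor family and a ligand family that hold cells to the matrix around them, and 37 genes encoding their subunits were compared between directly reprogrammed mouse cells, muscle and embryonic fibroblasts. The genes were all rows of the deposited count table whose symbol names an integrin α subunit (18 genes), an integrin β subunit (8 genes) or a laminin chain (11 genes), out of 55286 symbols. An integrin is a pair of an α and a β subunit that spans the membrane and ties matrix proteins outside to the actin cytoskeleton inside. A laminin is a trimer of an α, a β and a γ chain that builds the basement membrane. In skeletal muscle the pair of α7 and β1 binds the laminin with the α2 chain that sheathes each fibre, and loss of α7 or of that laminin chain causes inherited muscle disease in humans and mice, whereas fibroblasts rely largely on α5β1, the receptor for fibronectin.

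RNA sequencing had been done on 3 groups of mouse samples with 2 libraries each: cells titled direct reprogramming, called transdifferentiated cells here, samples labelled muscle, and mouse embryonic fibroblasts (MEF). The sources used here do not give the agent that drove conversion, the time after it, the strain, or the source and age of the muscle. Nothing says that replicates came from separate cultures or animals, so a p-value reflects how these samples spread, and that spread may be technical. With 2 libraries against 2 an exact permutation test cannot give a two-sided p below 0.333, and single genes rest on a model fitted across all genes.

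The libraries held 16817033 to 24584951 counted reads. All 12 skeletal muscle markers exceeded MEF in both transdifferentiated cells and muscle, and their summed level was 47530 to 62360 CPM (counts scaled to a common library size) in transdifferentiated cells, 61550 to 64660 CPM in muscle and 394.8 to 582.3 CPM in MEF. The 12 fibroblast markers summed to 18140 to 20790 CPM in transdifferentiated cells, 9463 to 16310 CPM in muscle and 24160 to 34890 CPM in MEF. The 17 macrophage and leukocyte markers summed to 930.3 to 1103 CPM in transdifferentiated cells, 28.48 to 31.26 CPM in muscle and 109.4 to 112.3 CPM in MEF. In such bulk samples fewer cells of a type and less RNA per cell cannot be told apart.

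Counts passed a filter on low values for 33 of the 37 genes. The other 4, Itgad, Itgam, Itgax and Lama3, had at most 24 counts in any library and were not tested. A gene was called at an edgeR p under 0.05 after Benjamini-Hochberg (BH) adjustment over all tested genes. Against MEF, transdifferentiated cells had 10 of the tested subunits higher, 6 lower and 17 neither, where 27.3% of all 17400 tested genes were called. The lower count was 3 without Transdifferentiated replicate 1. In muscle against MEF 10 were higher, 9 lower and 14 neither, beside 35.6% of all genes called, and the lower count was 6 without Muscle replicate 2. Set against muscle, transdifferentiated cells had 6 higher, 2 lower and 25 neither, beside 10% of all genes called, 7.58% higher and 2.46% lower. The higher and lower counts were 3 and 1 without Muscle replicate 2, 6 and 0 without Muscle replicate 1, and 6 and 1 without Transdifferentiated replicate 1. The median log2 fold change of the tested subunits was 0.10, 0.19 and -0.10 in the 3 comparisons, against 0.07, 0.00 and 0.03 over all tested genes. The first pair of comparisons shares the MEF libraries, so their values stand side by side and are not independent.

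**Figure D1:**
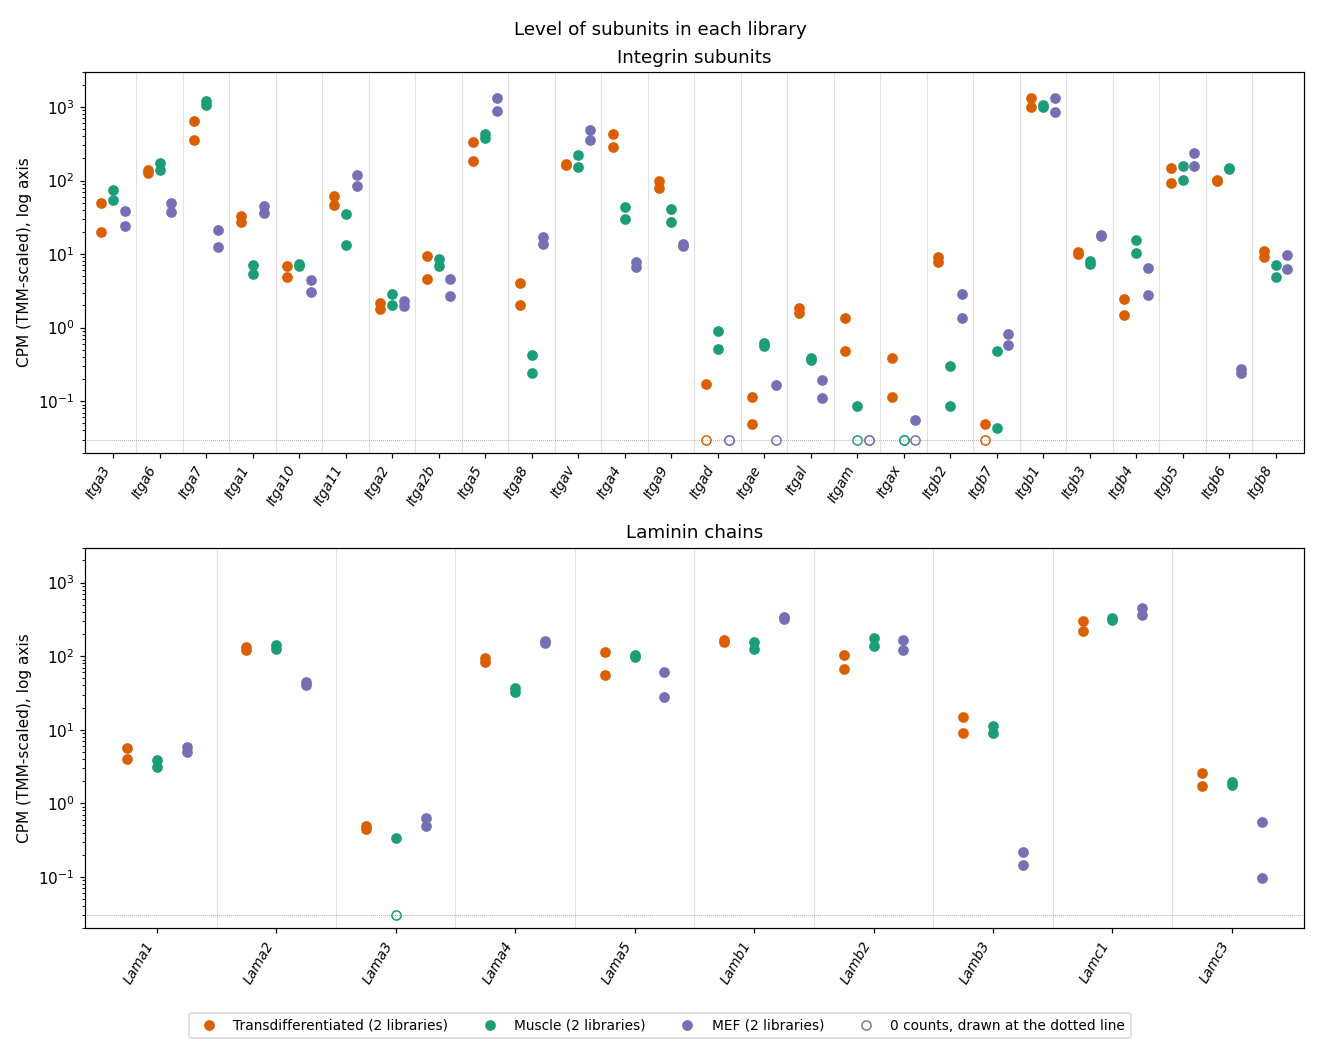
Level of the subunit genes in each of the 6 libraries, in CPM on a log axis, with 3 groups of 2 points per gene and open circles for a library with 0 counts. Itga7, Itgb6 and Lamb3 lie far above MEF in both transdifferentiated cells and muscle, Itga4 is highest in transdifferentiated cells, and Itgb1 lies between 842 and 1330 CPM in every library.

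The α subunits of laminin receptors were led by Itga7, the α7 subunit of the muscle laminin receptor (chromosome 10, 128933818 to 128958282, GRCm38). Itga7 stood at 352 and 638 CPM in transdifferentiated cells, 1210 and 1056 CPM in muscle, and 21.0 and 12.4 CPM in MEF. The 3 groups did not overlap, with transdifferentiated cells between muscle and MEF. The log2 fold change was 4.89 ± 0.41 in transdifferentiated cells against MEF and 6.08 ± 0.43 in muscle against MEF (SE; edgeR BH-adjusted p = 5.26e-05 and 1.52e-05). Against muscle, Itga7 in transdifferentiated cells had a log2 fold change of -1.19 ± 0.35 (edgeR BH-adjusted p = 0.0705). That difference was not called here, yet it was called in 6 of 13 alternatives, among them DESeq2 (adjusted p = 0.0137) and the fits that left out MEF replicate 1, MEF replicate 2 or Transdifferentiated replicate 2, each alone (adjusted p = 0.0133, 0.0151 and 0.0188).

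Itga6, the α6 subunit, which binds laminins in myoblasts and epithelia, rose less. It was at 141 and 127 CPM in transdifferentiated cells, 139 and 174 CPM in muscle, and 37.8 and 50.1 CPM in MEF. Transdifferentiated and muscle libraries overlapped, and both lay above MEF by 1.61 ± 0.27 and 1.83 ± 0.27 on the log2 scale (edgeR BH-adjusted p = 0.00238 and 8.51e-04). Itga3, the third laminin-binding α subunit, was not called in any comparison. Its levels were 19.96 and 49.7 CPM in transdifferentiated cells, 54.2 and 74.98 CPM in muscle, and 38.4 and 23.9 CPM in MEF, and the transdifferentiated libraries spanned the MEF range. In muscle against MEF its log2 fold change of 1.05 ± 0.44 missed the threshold (edgeR BH-adjusted p = 0.0951), and ran from 0.75 to 1.43 over 13 alternatives. The difference was called in 6 of them. These were DESeq2, no filter on low counts, only the 4 libraries compared, and the fits without MEF replicate 1, Transdifferentiated replicate 1 or Transdifferentiated replicate 2. In transdifferentiated cells against muscle the log2 fold change of Itga3 was -0.89 ± 0.44 (edgeR BH-adjusted p = 0.295) and -1.70 without Transdifferentiated replicate 2 (adjusted p = 0.0287).

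Itga4 and Itga9 encode the closely related α4 and α9 subunits, which bind fibronectin splice forms, VCAM1 and other matrix ligands, and α4 is known both from leukocytes and from developing muscle. Itga4 (chromosome 2, 79255426 to 79333123) was at 424.5 and 287 CPM in transdifferentiated cells, 44.3 and 29.6 CPM in muscle, and 6.72 and 7.82 CPM in MEF. Every transdifferentiated library lay above every muscle library, and both muscle libraries lay above MEF. Itga4 rose by 5.61 ± 0.37 on the log2 scale, or 48.9-fold, in transdifferentiated cells against MEF (edgeR BH-adjusted p = 1.18e-05). The rise in muscle against MEF was 2.35 ± 0.32 (edgeR BH-adjusted p = 6.23e-04), and transdifferentiated cells exceeded muscle by 3.27 ± 0.32, or 9.62-fold (edgeR BH-adjusted p = 5.08e-04). These 3 calls held in each of the 13 alternatives. The macrophage markers, whose cells can carry α4, moved with Itga4 in transdifferentiated cells: of the 17 macrophage and leukocyte markers 16 were higher and 0 lower against MEF, and 16 were higher and 0 lower against muscle. In muscle against MEF 0 of the 17 were higher and 14 lower. Over all genes 15.9% were higher in transdifferentiated cells against MEF and 7.58% against muscle, and 18.3% were lower in muscle against MEF. The part of these markers in the Itga4 level was not tested. Exons of Itga4 overlap those of Cerkl on the other strand over 1124 of 13978 bases, and Cerkl had at most 6 counts in any library.

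Itga9 was at 79.7 and 98 CPM in transdifferentiated cells, 41.1 and 26.96 CPM in muscle, and 13.0 and 13.8 CPM in MEF. The groups did not overlap and stood in the same order as for Itga4. The log2 fold change was 2.73 ± 0.31 in transdifferentiated cells against MEF, 1.35 ± 0.29 in muscle against MEF and 1.38 ± 0.29 in transdifferentiated cells against muscle (edgeR BH-adjusted p = 2.90e-04, 0.00697 and 0.0177). The Itga9 call of muscle against MEF was lost without Muscle replicate 1 (adjusted p = 0.0758), and that against muscle was lost without either Muscle replicate 2 or Transdifferentiated replicate 2 (BH-adjusted p = 0.192 and 0.062).

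The promoters of subunits that moved together are shown because muscle genes are known targets of basic helix-loop-helix factors, which bind E-boxes. The sequences are the 250 bases before a RefSeq transcription start on GRCm38.p6, 5′ to 3′ on the gene's strand, with every E-box in capitals (CANNTG, a pattern that is its own reverse complement, so both strands are covered). The first 4 belong to subunits that rose in transdifferentiated cells against MEF, and the last belongs to Itga5, which was lower.
Itga4, chr2:79255176-79255425, plus strand: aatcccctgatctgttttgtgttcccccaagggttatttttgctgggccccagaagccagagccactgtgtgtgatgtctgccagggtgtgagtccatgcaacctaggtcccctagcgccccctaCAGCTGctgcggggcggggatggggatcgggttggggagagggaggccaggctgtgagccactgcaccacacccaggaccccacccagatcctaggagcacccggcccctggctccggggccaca
Itga9, chr9:118711442-118711691, plus strand: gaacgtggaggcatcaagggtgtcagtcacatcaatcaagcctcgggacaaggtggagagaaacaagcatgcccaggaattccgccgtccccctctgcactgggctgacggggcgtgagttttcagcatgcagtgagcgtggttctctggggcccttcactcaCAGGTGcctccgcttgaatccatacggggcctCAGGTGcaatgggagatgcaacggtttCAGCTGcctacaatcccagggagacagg
Itgb6, chr2:60722604-60722853, minus strand: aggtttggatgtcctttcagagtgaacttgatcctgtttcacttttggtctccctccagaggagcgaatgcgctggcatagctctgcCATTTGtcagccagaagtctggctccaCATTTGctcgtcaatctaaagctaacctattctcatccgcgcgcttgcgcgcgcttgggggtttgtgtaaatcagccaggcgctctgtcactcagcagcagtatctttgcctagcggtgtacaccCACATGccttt
Lamb3, chr1:193301744-193301993, plus strand: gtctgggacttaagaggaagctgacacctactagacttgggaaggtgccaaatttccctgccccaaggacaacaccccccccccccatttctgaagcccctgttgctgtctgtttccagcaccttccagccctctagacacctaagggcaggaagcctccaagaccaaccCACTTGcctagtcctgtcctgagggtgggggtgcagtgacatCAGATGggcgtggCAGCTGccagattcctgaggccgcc
Itga5, chr15:103366792-103367041, minus strand: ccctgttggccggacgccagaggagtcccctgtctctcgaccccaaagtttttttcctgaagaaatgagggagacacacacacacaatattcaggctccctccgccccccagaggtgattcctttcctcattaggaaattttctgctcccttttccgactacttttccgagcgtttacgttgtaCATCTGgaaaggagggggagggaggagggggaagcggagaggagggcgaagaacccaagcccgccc
The Itga9 and Lamb3 windows belong to RefSeq starts that lie 105002 and 94295 bases inside the gene spans given by GENCODE. A window was found in the promoter table for 23 of the 37 genes, with 1 window per gene, that nearest to the gene's annotated 5′ end. Of these windows 18 held CANNTG, which 66.2% of all 32851 promoter windows of that length hold. The E-box CAGCTG, also its own reverse complement and 1 form of CANNTG, was in 6 of the 23 windows and in 13.0% of all windows. Among subunits called higher in transdifferentiated cells against MEF, 3 of 5 windows held CAGCTG (Itga4, Itga9 and Lamb3), among those called lower 0 of 5, and among those called neither 3 of 11. These are matches of letters in short windows and were not tested.

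Among the α subunits that read the RGD motif of fibronectin and vitronectin, Itga5 and Itgav, per kb the most abundant in MEF, fell in both other groups. Itga5 (α5, chromosome 15, 103344286 to 103366763) was at 185 and 331 CPM in transdifferentiated cells, 426 and 378 CPM in muscle, and 1321 and 886 CPM in MEF. Both transdifferentiated libraries lay below both muscle libraries, and all 4 lay below MEF. Its log2 fold change was -2.10 ± 0.34 in transdifferentiated cells against MEF and -1.45 ± 0.33 in muscle against MEF (edgeR BH-adjusted p = 0.00223 and 0.00893), while transdifferentiated cells against muscle had -0.64 ± 0.33 (edgeR BH-adjusted p = 0.317). Of the 12 fibroblast markers, 4 were lower and 2 higher in transdifferentiated cells against MEF, beside 11.3% of all genes lower and 15.9% higher. The share of higher markers there is near that over all genes. In muscle against MEF 8 were lower and 0 higher, beside 18.3% and 17.3% of all genes. The part of these markers in the fall of Itga5 was not tested. Itgav (αv), a partner of several β subunits, was at 167 and 161 CPM in transdifferentiated cells, 153 and 222 CPM in muscle, and 359 and 481 CPM in MEF, with log2 fold changes against MEF of -1.36 ± 0.28 and -1.16 ± 0.28 in transdifferentiated cells and muscle (edgeR BH-adjusted p = 0.00691 and 0.0105). In muscle against MEF the Itga5 call was lost without Muscle replicate 2 (adjusted p = 0.0739) and the Itgav call without Muscle replicate 1 (adjusted p = 0.105).

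Itga8 (α8), which pairs with β1 and binds nephronectin, was at 3.99 and 2.03 CPM in transdifferentiated cells, 0.426 and 0.243 CPM in muscle, and 13.7 and 17.0 CPM in MEF. It fell by 2.35 ± 0.43 on the log2 scale in transdifferentiated cells against MEF and by 5.45 ± 0.54 in muscle against MEF (edgeR BH-adjusted p = 0.00417 and 9.88e-05). Transdifferentiated cells exceeded muscle by 3.10 ± 0.53 (edgeR BH-adjusted p = 0.00706), a call that was lost without Muscle replicate 2 (adjusted p = 0.0643). Transdifferentiated cells stood between muscle and MEF for Itga8, with no overlap of the groups. Itga2b (αIIb), the platelet fibrinogen receptor subunit, was at 4.55 and 9.35 CPM in transdifferentiated cells, 6.91 and 8.58 CPM in muscle, and 4.57 and 2.72 CPM in MEF, and was not called in any comparison. The 8 platelet markers summed to 7.795 to 13.27 CPM in transdifferentiated cells, 0.9129 to 0.9381 CPM in muscle and 37.51 to 43.28 CPM in MEF, with Gp9 at 0 counts in all 6 libraries. Nearly all of the MEF sum was Ppbp, at 0.394 and 0.242 CPM in transdifferentiated cells, 0.0426 and 0 CPM in muscle, and 34.3 and 39.98 CPM in MEF. Of the 4 tested platelet markers 2, Pf4 and Treml1, were called higher and Ppbp lower in transdifferentiated cells than in MEF. Against muscle 3 were higher. Over all genes 15.9% were higher and 11.3% lower against MEF, and 7.58% were higher against muscle. The part of these markers in the Itga2b level was not tested.

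Of the 4 collagen-binding α subunits, 2 fell in muscle and none was called in transdifferentiated cells against MEF. Itga1 (α1), a receptor for basement membrane collagen, was at 32.6 and 27.0 CPM in transdifferentiated cells, 6.99 and 5.36 CPM in muscle, and 36.4 and 45.5 CPM in MEF. Both transdifferentiated libraries lay just below MEF and above muscle. The 9 smooth muscle and pericyte markers, a cell type known for α1, summed to 2365 to 3285 CPM in transdifferentiated cells, 2810 to 4339 CPM in muscle and 10080 to 13770 CPM in MEF. Acta2 made up most of these sums, at 2126 and 2908 CPM in transdifferentiated cells, 4019 and 2581 CPM in muscle, and 12220 and 8988 CPM in MEF. Against MEF, 1 of the 9 markers was higher and 5 lower in transdifferentiated cells, where Itga1 was not called, beside 15.9% and 11.3% of all genes. In muscle against MEF 1 was higher and 6 lower, beside 17.3% and 18.3% of all genes, and Itga1 was lower. Over all genes 7.58% were higher and 2.46% lower in transdifferentiated cells than in muscle. Of the 9 markers 2 were called higher there, as Itga1 was, and 1, Rgs5, was lower. The higher ones were Myh11, at 4.27 and 5.47 CPM in transdifferentiated cells and 0.128 and 0.122 CPM in muscle, and Kcnj8, with 38 and 40 counts in transdifferentiated cells and 0 and 0 in muscle. The part of these markers in the Itga1 result was not tested. Itga1 had a log2 fold change of -0.46 ± 0.28 in transdifferentiated cells against MEF (edgeR BH-adjusted p = 0.266), -2.72 ± 0.30 in muscle against MEF (edgeR BH-adjusted p = 1.78e-04) and 2.26 ± 0.30 in transdifferentiated cells against muscle (edgeR BH-adjusted p = 0.00186). Itga11 (α11), the fibrillar collagen receptor of fibroblasts, was at 47.1 and 61.5 CPM in transdifferentiated cells, 34.6 and 13.3 CPM in muscle, and 120.4 and 83.2 CPM in MEF. It fell by 2.08 ± 0.44 on the log2 scale in muscle against MEF (edgeR BH-adjusted p = 0.00613), and by 2.94 without Muscle replicate 1 (adjusted p = 0.00256). In transdifferentiated cells Itga11 had a log2 fold change of -0.91 ± 0.43 against MEF and 1.18 ± 0.43 against muscle (edgeR BH-adjusted p = 0.153 and 0.144). Without Muscle replicate 1 the last was 2.03 and called (adjusted p = 0.0371). Itga2 and Itga10, the platelet and cartilage collagen receptor subunits, ranged from 1.79 to 7.29 CPM over all libraries and were not called in any comparison. Over 1739 of its 5186 exon bases Itga10 shares its strand with another gene model, Gm42957, which had at most 3 counts in any library.

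Of the 6 β subunits of adherent cells, Itgb1 was called in no comparison and Itgb6 rose the most. Itgb1 (β1), the common partner of the laminin and collagen receptors and of α5, was at 1319 and 1013 CPM in transdifferentiated cells, 1052 and 988 CPM in muscle, and 842 and 1330 CPM in MEF. The groups overlapped in all 3 comparisons, and the log2 fold changes of Itgb1 were 0.10 ± 0.28, -0.09 ± 0.28 and 0.19 ± 0.28 in transdifferentiated cells against MEF, muscle against MEF and transdifferentiated cells against muscle (edgeR BH-adjusted p = 0.824, 0.834 and 0.812). Splice forms, among them the muscle form of β1, are not separated in these counts.

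Itgb6 (β6, chromosome 2, 60598292 to 60722643), known as the epithelial partner of αv that binds latent TGF-β, had the largest log2 fold change of the 33 tested subunits in both comparisons against MEF. It was at 102 and 97.2 CPM in transdifferentiated cells, 142 and 149 CPM in muscle, and 0.275 and 0.243 CPM in MEF, where each library had 5 counts. The 3 groups did not overlap, and the MEF libraries were near the limit of detection. Itgb6 rose by 8.56 ± 0.36 on the log2 scale in transdifferentiated cells against MEF and by 9.11 ± 0.36 in muscle against MEF (edgeR BH-adjusted p = 1.52e-06 and 9.44e-07). In transdifferentiated cells against muscle the log2 fold change of Itgb6 was -0.55 ± 0.23 (edgeR BH-adjusted p = 0.205). The 8 epithelial markers summed to 2.474 to 5.035 CPM in transdifferentiated cells, 6.013 to 6.391 CPM in muscle and 12.19 to 13.44 CPM in MEF. Grhl2 was at 0 counts in all 6 libraries.

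The other β subunits of adherent cells had smaller log2 fold changes against MEF than Itgb6. Itgb4 (β4), the hemidesmosome partner of α6, was at 1.46 and 2.42 CPM in transdifferentiated cells, 15.4 and 10.4 CPM in muscle, and 6.39 and 2.82 CPM in MEF. It was lower in transdifferentiated cells than in muscle by a log2 fold change of -2.72 ± 0.50 (edgeR BH-adjusted p = 0.0102; adjusted p = 0.0613 without Muscle replicate 1). Itgb4 was higher in muscle than in MEF (1.49 ± 0.47, edgeR BH-adjusted p = 0.0371), a call lost without MEF replicate 2, Muscle replicate 1 or Muscle replicate 2 (adjusted p = 0.150, 0.195 and 0.0641), while without MEF replicate 1 the log2 fold change was 2.19. With the replicate block the adjusted p of that Itgb4 call was 0.0516. Against MEF, Itgb4 in transdifferentiated cells had a log2 fold change of -1.23 ± 0.50 (edgeR BH-adjusted p = 0.101; adjusted p = 0.0199 without MEF replicate 2).

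Itgb3 (β3), the vitronectin receptor partner of αv, was at 10.7 and 10.02 CPM in transdifferentiated cells, 8.15 and 7.43 CPM in muscle, and 18.5 and 17.6 CPM in MEF. It was lower in muscle than in MEF by a log2 fold change of -1.21 ± 0.29 (edgeR BH-adjusted p = 0.0106), a call lost without Muscle replicate 1 or 2 (adjusted p = 0.0658 and 0.0976), and in transdifferentiated cells against MEF Itgb3 had -0.80 ± 0.29 (edgeR BH-adjusted p = 0.0682). Itgb5 and Itgb8, which also pair with αv, were not called in any comparison. Itgb5 ranged from 93.8 to 147 CPM in transdifferentiated cells, 103 to 156 CPM in muscle and 158 to 239 CPM in MEF, and Itgb8 from 9.10 to 11.1 CPM, 4.86 to 7.06 CPM and 6.22 to 9.57 CPM in the same groups.

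**Figure D2:**
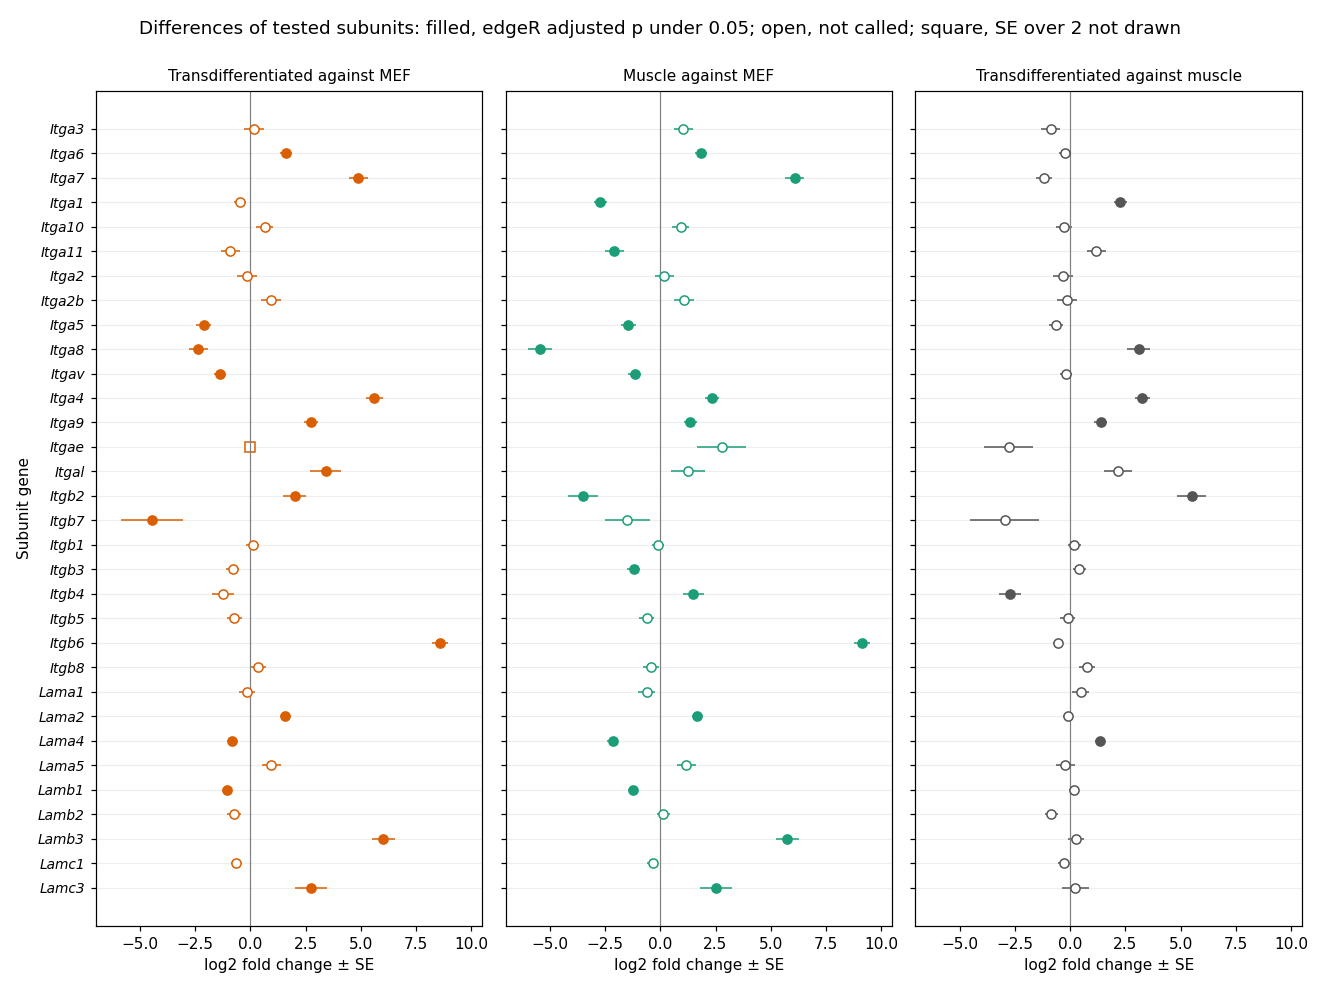
Log2 fold change with its standard error of tested subunits in the 3 comparisons, with filled symbols where the edgeR BH-adjusted p was under 0.05. The square for Itgae marks a standard error too wide to draw. Itgb6, Lamb3 and Itga7 stand far to the right in both comparisons against MEF, Itga4 mainly in transdifferentiated cells, and Itgb2, Itga4 and Itga8 lead the right side in transdifferentiated cells against muscle.

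Among the leukocyte integrins, Itgb2 had the same order of groups as the summed macrophage and leukocyte markers. Itgb2 (β2), the common β subunit of leukocyte integrins, was at 7.81 and 9.01 CPM in transdifferentiated cells, 0.0853 and 0.304 CPM in muscle, and 2.86 and 1.36 CPM in MEF. The groups did not overlap, with transdifferentiated cells highest and muscle lowest. Itgb2 rose by 2.0 ± 0.51 on the log2 scale in transdifferentiated cells against MEF and exceeded muscle by 5.49 ± 0.67 (edgeR BH-adjusted p = 0.0195 and 0.00133), while muscle against MEF had a log2 fold change of -3.50 ± 0.68 (edgeR BH-adjusted p = 0.00401). The rise of Itgb2 against MEF was 2.62 without MEF replicate 1, and the call was lost without either MEF replicate 2 or Transdifferentiated replicate 2 (BH-adjusted p = 0.0712 and 0.0536). Against muscle the log2 fold change of Itgb2 was 4.76 without Muscle replicate 1 and 6.52 without Muscle replicate 2, and in muscle against MEF it was -2.87 without MEF replicate 1, -2.76 without Muscle replicate 1 and -4.52 without Muscle replicate 2. Of the 17 macrophage and leukocyte markers, 16 were called higher than MEF and 16 higher than muscle in transdifferentiated cells, beside 15.9% and 7.58% of all genes. In muscle against MEF 0 were higher and 14 lower, beside 17.3% and 18.3% of all genes. The part of these markers in the Itgb2 result was not tested.

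Itgal (αL), the β2 partner of lymphocytes and myeloid cells, was at 1.57 and 1.84 CPM in transdifferentiated cells, 0.384 and 0.365 CPM in muscle, and 0.110 and 0.194 CPM in MEF. It rose by 3.42 ± 0.70 on the log2 scale in transdifferentiated cells against MEF (edgeR BH-adjusted p = 0.00675) and had 2.17 ± 0.63 against muscle (edgeR BH-adjusted p = 0.0638). The rise rests on 2 and 4 counts of Itgal in the MEF libraries, near the limit of detection. The 9 markers of T, B and NK cells summed to 9.296 to 10.96 CPM in transdifferentiated cells, 1.096 to 3.582 CPM in muscle and 0.3305 to 0.7286 CPM in MEF. Nearly all of the sum in transdifferentiated cells was Cd3g, at 9.95 and 8.96 CPM, and only Cd3g passed the count filter. No other marker of this list was above 0.787 CPM in transdifferentiated cells, and Cd3e was at 0.169 and 0.145 CPM there. Nkg7 and Ms4a1 were at 0 counts in all 6 libraries. The part of these markers in the Itgal result was not tested. Itgam (αM), the myeloid partner, had 24 and 10 counts in transdifferentiated cells, 2 and 0 in muscle, and 0 and 0 in MEF. Set against an upper limit of 3 counts per MEF library, Itgam was at least 5.90-fold higher in transdifferentiated cells, a bound of 3.11-fold without Transdifferentiated replicate 1 and 8.68-fold without Transdifferentiated replicate 2. The ratio of Itgam in transdifferentiated cells to muscle was 17.6 (95% Poisson interval 4.52 to 152, counting error only). Exons of Itgam overlap another gene model on the same strand, Gm49368, over 3450 of 5024 bases. Gm49368 had at most 2 counts in any library, so few reads were counted for it. Whether reads lying in both were left uncounted was not tested. Itgax (αX), a dendritic cell marker, had 2 and 8 counts in transdifferentiated cells, 0 and 0 in muscle, and 1 and 0 in MEF.

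Itgb7 (β7), the lymphocyte homing subunit, had 0 and 1 counts in transdifferentiated cells, 1 and 8 in muscle, and 15 and 12 in MEF. Its ratio of transdifferentiated cells to MEF was 0.0373 (95% Poisson interval 9.12e-04 to 0.227, counting error only). The model called Itgb7 lower there (edgeR BH-adjusted p = 0.0443), but not without any single MEF or transdifferentiated library (adjusted p = 0.0626 to 0.176) and not with DESeq2 (adjusted p = 0.0509) or the replicate block (adjusted p = 0.0587). Itgae (αE), its partner in epithelial T cells, had 2 and 1 counts in transdifferentiated cells, 13 and 10 in muscle, and 3 and 0 in MEF, and was not called in any comparison. Itgad (αD) had 3 and 0 counts in transdifferentiated cells, 12 and 15 in muscle, and 0 and 0 in MEF. Exons of Itgad overlap Cox6a2, a muscle cytochrome oxidase subunit on the other strand, which had 432 and 854 counts in transdifferentiated cells, 3005 and 1797 in muscle, and 20 and 13 in MEF. Reads of the pair cannot be told apart where the counting ignored strand, and no source used here gives the strand setting.

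Among the laminin α chains, Lama2, the chain of the muscle fibre basement membrane, rose and Lama4, the chain of vessels and embryonic mesenchyme, fell. Lama2 (chromosome 10, 26980036 to 27619758) was at 122 and 132 CPM in transdifferentiated cells, 143.5 and 127 CPM in muscle, and 40.6 and 44.3 CPM in MEF. Transdifferentiated cells and muscle overlapped, and both lay above MEF. Lama2 rose by 1.58 ± 0.24 on the log2 scale in transdifferentiated cells against MEF and by 1.67 ± 0.24 in muscle against MEF (edgeR BH-adjusted p = 0.00143 and 7.42e-04). In transdifferentiated cells against muscle it differed by -0.09 ± 0.23 (edgeR BH-adjusted p = 0.911). Lama4 (chromosome 10, 38965515 to 39110188) was at 95.5 and 82.2 CPM in transdifferentiated cells, 37.2 and 32.6 CPM in muscle, and 150.4 and 162 CPM in MEF, so that transdifferentiated cells lay between both other groups. The 11 endothelial markers summed to 14.22 to 20.58 CPM in transdifferentiated cells, 3.591 to 6.866 CPM in muscle and 23.8 to 25.72 CPM in MEF. Cdh5, the highest on average, was at 1.01 and 5.33 CPM, 0.810 and 0 CPM, and 11.8 and 8.35 CPM in the same groups. Of the 9 tested, 2 (Erg and Vwf) were called higher and 2 lower in transdifferentiated cells than in MEF, beside 15.9% and 11.3% of all genes. Muscle had 1 higher (Vwf) and 6 lower than MEF, beside 17.3% and 18.3% of all genes. Against muscle 3 were higher and 0 lower, beside 7.58% and 2.46%. The part of these markers in the Lama4 result was not tested. Lama4 was lower in muscle than in MEF by 2.16 ± 0.25 on the log2 scale (edgeR BH-adjusted p = 2.11e-04). In transdifferentiated cells Lama4 had a log2 fold change of -0.81 ± 0.24 against MEF and 1.35 ± 0.24 against muscle (edgeR BH-adjusted p = 0.0337 and 0.00847). The Lama4 call against MEF was lost in 8 of 13 alternatives, with log2 fold changes from -0.92 to -0.74 over the 13. The 8 left out any of the 6 libraries, used the replicate block (adjusted p = 0.0942) or fitted only the 4 libraries compared. The call against muscle was lost without Muscle replicate 1 or 2.

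Lama5 (α5 chain), found in most adult basement membranes and at the nerve-muscle synapse, varied between replicates. It was at 55.5 and 115 CPM in transdifferentiated cells, 103 and 96.6 CPM in muscle, and 60.9 and 28.1 CPM in MEF, and was not called in any comparison. In muscle against MEF the log2 fold change of Lama5 was 1.17 ± 0.43 (edgeR BH-adjusted p = 0.0658), and 1.83 without MEF replicate 1. That difference was called in 6 of 13 alternatives. These were DESeq2, no filter on low counts, only the 4 libraries compared, and the fits without MEF replicate 1, Transdifferentiated replicate 1 or Transdifferentiated replicate 2. In transdifferentiated cells against MEF the log2 fold change of Lama5 was 0.94 ± 0.43 (edgeR BH-adjusted p = 0.143). It was 1.6 and 1.38 without MEF replicate 1 and Transdifferentiated replicate 1, and was called in these fits and with no filter on low counts. Lama1 (α1 chain), a chain of early embryonic basement membranes, lay between 3.10 and 5.78 CPM in all libraries and was not called in any comparison. Lama3, the epithelial α3 chain, had at most 13 counts in any library.

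Among the β and γ chains, the epithelial chain Lamb3 rose and the widespread chain Lamb1 fell in both groups compared with MEF. Lamb3 (chromosome 1, 193207699 to 193343878), the β3 chain of skin basement membranes, was at 9.16 and 14.9 CPM in transdifferentiated cells, 8.91 and 11.3 CPM in muscle, and 0.220 and 0.146 CPM in MEF, where 7 counts were found in all. It rose by 6.0 ± 0.52 on the log2 scale in transdifferentiated cells against MEF and by 5.75 ± 0.52 in muscle against MEF (edgeR BH-adjusted p = 6.49e-05 and 6.28e-05). The transdifferentiated and muscle libraries overlapped for Lamb3. Lama3, the α3 chain, with which β3 assembles in skin, was at most 0.631 CPM in any library.

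Lamb1 (β1 chain), present in most laminins, was at 155 and 165 CPM in transdifferentiated cells, 155 and 127 CPM in muscle, and 337 and 323 CPM in MEF. It fell by 1.05 ± 0.23 on the log2 scale in transdifferentiated cells against MEF and by 1.23 ± 0.23 in muscle against MEF (edgeR BH-adjusted p = 0.0104 and 0.00357). These Lamb1 calls were lost without Transdifferentiated replicate 1 (adjusted p = 0.0572) and without Muscle replicate 2 (adjusted p = 0.0594), in that order. Lamb2 (β2 chain), concentrated at the nerve-muscle synapse in adult muscle, was at 67.7 and 104 CPM in transdifferentiated cells, 177 and 136 CPM in muscle, and 165 and 122 CPM in MEF, and was not called in any comparison. Without Transdifferentiated replicate 2 the log2 fold change of Lamb2 against MEF was -1.11 (adjusted p = 0.0489), against -0.74 ± 0.30 with all libraries. Lamc1 (γ1), the γ chain of most laminins, was at 219.5 and 303 CPM in transdifferentiated cells, 327 and 312 CPM in muscle, and 446 and 364 CPM in MEF, and was not called either. Lamc3 (γ3) was at 1.74 and 2.57 CPM in transdifferentiated cells, 1.75 and 1.95 CPM in muscle, and 0.551 and 0.0971 CPM in MEF. It was called higher in both groups than in MEF, in transdifferentiated cells and muscle by 2.75 ± 0.73 and 2.52 ± 0.73 on the log2 scale (edgeR BH-adjusted p = 0.0224 and 0.0252). These Lamc3 values rest on few MEF counts. Without MEF replicate 1 they were 4.38 and 4.16, and without MEF replicate 2 they were 1.95 and 1.73 and not called (adjusted p = 0.0788 and 0.101). The first was also not called without Transdifferentiated replicate 2 (adjusted p = 0.0627), nor the second without Muscle replicate 1 or 2 (adjusted p = 0.0687 and 0.0869).

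Levels of different subunits were set side by side per kb of merged exon length, as a description with no test. Itga7 took 25.5% and 33.7% of the summed per-kb level of all α subunits in transdifferentiated cells, 50.8% and 47.9% in muscle, and 0.749% and 0.590% in MEF. Itga5 took 21.96% and 28.6%, 29.4% and 28.2%, and 77.4% and 68.97% in transdifferentiated cells, muscle and MEF. Itga4 took 17.8% and 8.76% in transdifferentiated cells, 1.08% and 0.779% in muscle, and 0.139% and 0.215% in MEF. Itga7 led the α pool in transdifferentiated cells and in muscle and Itga5 led it in MEF, while the sum of the pool lay between 170.4 and 346.2 CPM per kb in every library. Itgb1 took 87.5% and 80.3% of the β pool in transdifferentiated cells, 79.1% and 81.9% in muscle, and 73.8% and 86.8% in MEF. Itgb6 took 3.89% and 4.42%, 6.15% and 7.10%, and 0.0139% and 0.0091% in transdifferentiated cells, muscle and MEF.

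The laminin α chains changed their proportions while their sum stayed between 19.18 and 25.65 CPM per kb in every library. Lama4 took 38.2% and 26.6% of the α chain pool in transdifferentiated cells, 14.4% and 14.03% in muscle, and 59.5% and 70.0% in MEF. Lama2 took 36.1% and 31.5% in transdifferentiated cells, 41.1% and 40.3% in muscle, and 11.9% and 14.1% in MEF. With the longest transcript as the length, Lama4 led in transdifferentiated cells (46.6% and 35.7%) and Lama2 in muscle (48.8% and 48.2%), so the leading chain of those groups depends on the length used. Lamc1 took at least 88.7% of the γ pool in every library, and Lamb1 and Lamb2 together nearly all of the β pool, with Lamb3 at 4.93% and 6.25% in transdifferentiated cells, 2.92% and 4.63% in muscle, and 0.0546% and 0.0419% in MEF.

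**Figure D3:**
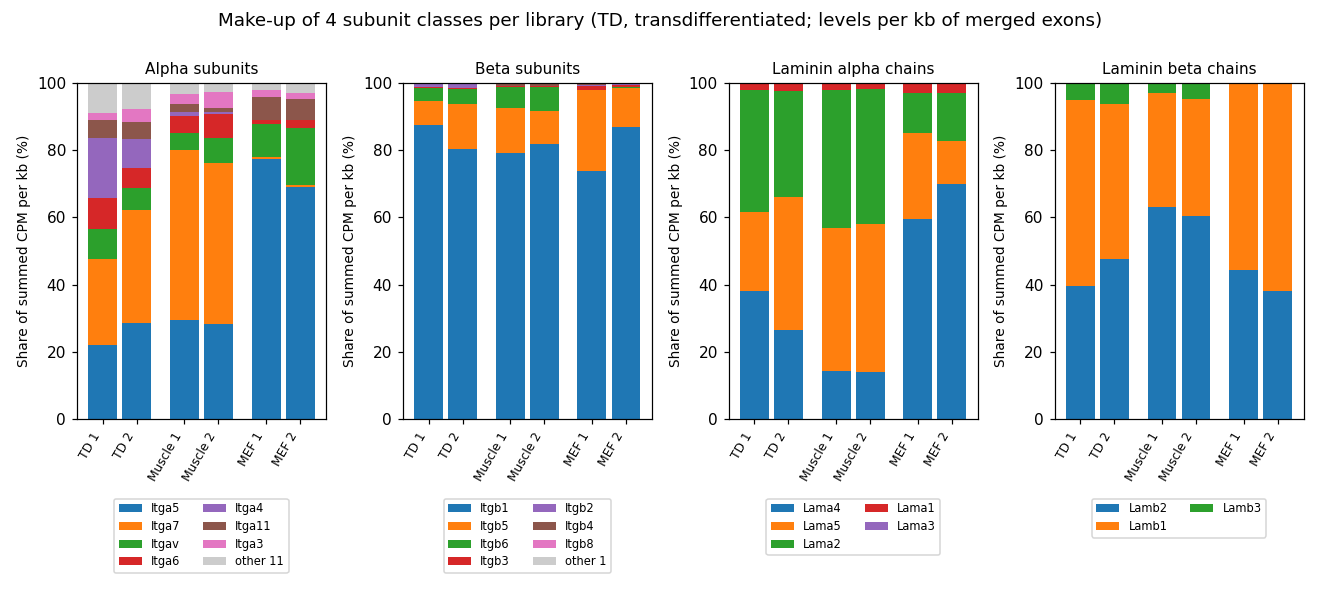
Share of the summed level per kb of merged exons that a subunit takes within the integrin α and β classes and the laminin α and β chains, in percent, for each of the 6 libraries, with smaller members of a class pooled in grey. Itga5 fills most of the α bar in MEF, Itga7 is the largest part in muscle, and Lama2 and Lama5 together outweigh Lama4 in transdifferentiated cells and muscle but not in MEF.

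The genes that act with integrins and laminins were counted in 4 lists. Of 31 tested genes of the intracellular adhesion complex, 4 were higher and 11 lower in transdifferentiated cells than in MEF, and muscle had 4 higher and 12 lower than MEF, with medians of -0.79 and -0.91. The shares of all 17400 genes called against MEF were 15.9% up and 11.3% down for transdifferentiated cells, and 17.3% up and 18.3% down for muscle. Itgb1bp2 (melusin), a muscle protein that binds the β1 tail, was at 273 and 254 CPM in transdifferentiated cells, 253 and 242 CPM in muscle, and 0.220 and 0.534 CPM in MEF. It rose by 9.40 ± 0.42 and 9.31 ± 0.42 on the log2 scale in transdifferentiated cells and muscle against MEF (edgeR BH-adjusted p = 1.90e-06 and 1.53e-06). The other 3 higher genes of both comparisons, named after their values were seen, were Pxn, Flnc and Tln2, which encode the scaffold paxillin, muscle filamin and a talin abundant in striated muscle. The Pxn call in muscle was lost without Muscle replicate 1 (adjusted p = 0.0698), and the Tln2 call in transdifferentiated cells without either MEF replicate 2 or Transdifferentiated replicate 2 (BH-adjusted p = 0.0509 and 0.112). Flna, which crosslinks actin in other cells, fell against MEF by 2.74 ± 0.33 on the log2 scale in transdifferentiated cells and by 2.93 ± 0.34 in muscle (edgeR BH-adjusted p = 4.85e-04 and 2.38e-04). Against muscle, 29 of the 31 genes were neither (10% of all genes were called), Fermt3, the kindlin of blood cells, was higher (4.29 ± 0.73, edgeR BH-adjusted p = 0.00686) and Parvb, a parvin, was lower (-1.52 ± 0.32, edgeR BH-adjusted p = 0.0173). The Fermt3 call was lost without Muscle replicate 2 (adjusted p = 0.0592), and the Parvb call without Muscle replicate 1, without Muscle replicate 2 and without Transdifferentiated replicate 1 (BH-adjusted p = 0.127, 0.0522 and 0.0748).

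Of 18 tested basement membrane partners, 3 were higher and 3 lower in transdifferentiated cells than in MEF, and muscle had 4 higher and 8 lower than MEF. Called in either direction were 33.3% of these partners in transdifferentiated cells and 66.7% in muscle, beside 27.3% and 35.6% of all genes, and 16.7% against muscle, beside 10%. The first share is near that over all genes. Bcam, a non-integrin receptor for the laminin α5 chain, rose by 4.98 ± 0.45 and 5.72 ± 0.46 on the log2 scale in transdifferentiated cells and muscle against MEF (edgeR BH-adjusted p = 7.79e-05 and 3.10e-05). Its levels were 179 and 271 CPM in transdifferentiated cells, 470 and 282 CPM in muscle, and 9.31 and 4.95 CPM in MEF. Col15a1, a collagen of muscle basement membranes, rose by 2.50 ± 0.32 in transdifferentiated cells and 2.92 ± 0.33 in muscle (edgeR BH-adjusted p = 6.67e-04 and 2.10e-04). The fibulin Fbln2 fell against MEF by 2.97 ± 0.40 in transdifferentiated cells and by 2.38 ± 0.39 in muscle (edgeR BH-adjusted p = 8.68e-04 and 0.00178). The fibulin Fbln1 had a log2 fold change of -0.56 ± 0.32 against MEF in transdifferentiated cells (edgeR BH-adjusted p = 0.239), with overlapping libraries, and fell by 4.29 ± 0.37 in muscle (edgeR BH-adjusted p = 4.60e-05). Against muscle, 3 of the 18 were higher, Fbln1, Col4a6 and Col4a5 (3.73 ± 0.36, 3.28 ± 0.59 and 1.23 ± 0.26; edgeR BH-adjusted p = 4.46e-04, 0.00886 and 0.0186), and 0 were lower. The last 2 encode collagen IV chains. The Col4a6 call was lost without Muscle replicate 2 (adjusted p = 0.0586), and the Col4a5 call without Muscle replicate 1, without Muscle replicate 2 and without Transdifferentiated replicate 2 (BH-adjusted p = 0.0834, 0.213 and 0.0721) and with the replicate block (adjusted p = 0.0555).

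Of 16 tested other integrin ligands, 2 were higher and 8 lower in transdifferentiated cells than in MEF, and muscle had 1 higher and 9 lower than MEF. Called in either direction were 62.5% of these ligands in each group against MEF, beside 27.3% of all genes in transdifferentiated cells and 35.6% in muscle, and over all genes 11.3% and 18.3% were lower. Npnt (nephronectin), the ligand of the α8 integrin, was at 570 and 608 CPM in transdifferentiated cells, 730 and 567 CPM in muscle, and 22.4 and 20.7 CPM in MEF. It rose by 4.77 ± 0.28 and 4.91 ± 0.28 on the log2 scale in transdifferentiated cells and muscle against MEF (edgeR BH-adjusted p = 5.87e-06 and 3.93e-06), whereas its receptor subunit Itga8 fell in both. Thbs1 and Ccn1, secreted proteins of the matrix, fell by 3.12 ± 0.32 and 2.13 ± 0.27 in transdifferentiated cells against MEF (edgeR BH-adjusted p = 1.82e-04 and 5.35e-04). In muscle Thbs1 was at 3259 and 2323 CPM, beside 16720 and 14220 CPM in MEF. Ccn1 was at 415.8 and 341.4 CPM in muscle and 2165 and 1543 CPM in MEF. Tgfbi, a matrix protein bound by several integrins, was at 150.3 and 140 CPM in transdifferentiated cells, 2.47 and 1.34 CPM in muscle, and 105 and 85.4 CPM in MEF, and exceeded muscle by 6.22 ± 0.38 in transdifferentiated cells (edgeR BH-adjusted p = 1.01e-04). Muscle was lower than MEF for Tgfbi, by 5.61 ± 0.37 (edgeR BH-adjusted p = 9.66e-06). Vcam1, a ligand of α4β1 and α9β1, was at 42.2 and 34.8 CPM in transdifferentiated cells, 16.2 and 19.8 CPM in muscle, and 130.1 and 188 CPM in MEF. It was lower in muscle than in MEF (-3.15 ± 0.30, edgeR BH-adjusted p = 8.58e-05) and higher in transdifferentiated cells than in muscle (1.10 ± 0.28, edgeR BH-adjusted p = 0.0422), a call lost without any single transdifferentiated or muscle library (adjusted p = 0.0533 to 0.289) and with the replicate block (adjusted p = 0.0907). Vtn (vitronectin) had 31 and 66 counts in transdifferentiated cells, 6 and 0 in muscle, and 0 and 0 in MEF. It was called higher in transdifferentiated cells than in muscle (4.05 ± 0.99, edgeR BH-adjusted p = 0.0406), but not without either Muscle replicate 2 or Transdifferentiated replicate 2 (BH-adjusted p = 0.148 and 0.137) or with the replicate block (adjusted p = 0.0746).

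Of 19 tested membrane partners and regulators, 2 were higher and 7 lower in transdifferentiated cells than in MEF, and muscle had 2 higher and 9 lower than MEF. Called in either direction were 47.4% of them in transdifferentiated cells and 57.9% in muscle, beside 27.3% and 35.6% of all genes. Higher calls made up 15.9% and 17.3% of all genes, so the higher counts of this list are not above the share over all genes. Cav3, the muscle caveolin, rose by 8.42 ± 0.38 and 9.29 ± 0.39 on the log2 scale in transdifferentiated cells and muscle (edgeR BH-adjusted p = 1.96e-06 and 1.16e-06). Cd82, a tetraspanin that associates with integrins, rose by 2.85 ± 0.26 and 2.56 ± 0.26 in the same groups (edgeR BH-adjusted p = 7.69e-05 and 1.01e-04). Plaur, the urokinase receptor, fell by 2.93 ± 0.31 in transdifferentiated cells and by 3.04 ± 0.31 in muscle against MEF (edgeR BH-adjusted p = 2.18e-04 and 1.3e-04). Cav1 and Adam12 fell by 3.33 ± 0.28 and 2.75 ± 0.27 in muscle against MEF (edgeR BH-adjusted p = 3.71e-05 and 8.78e-05). Cav1 was at 118.2 and 95.09 CPM in transdifferentiated cells and 364.7 and 401.6 CPM in MEF. Adam12 was at 67.35 and 60.76 CPM in transdifferentiated cells and 224.2 and 233.7 CPM in MEF. Against muscle 15.8% of the 19 were called, beside 10% of all genes, 7.58% higher and 2.46% lower. Dab2, Cav1 and Cd47 were higher in transdifferentiated cells than in muscle (1.75 ± 0.23, 1.49 ± 0.26 and 0.97 ± 0.26, edgeR BH-adjusted p = 0.0019, 0.008 and 0.049). Of the 19, 0 were lower, which is near the share over all genes. The Cav1 call was lost without Muscle replicate 1 (adjusted p = 0.101), and the Cd47 call without any single transdifferentiated or muscle library (adjusted p = 0.0526 to 0.303) and in 3 other alternatives (adjusted p = 0.0519 to 0.128).

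**Figure D4:**
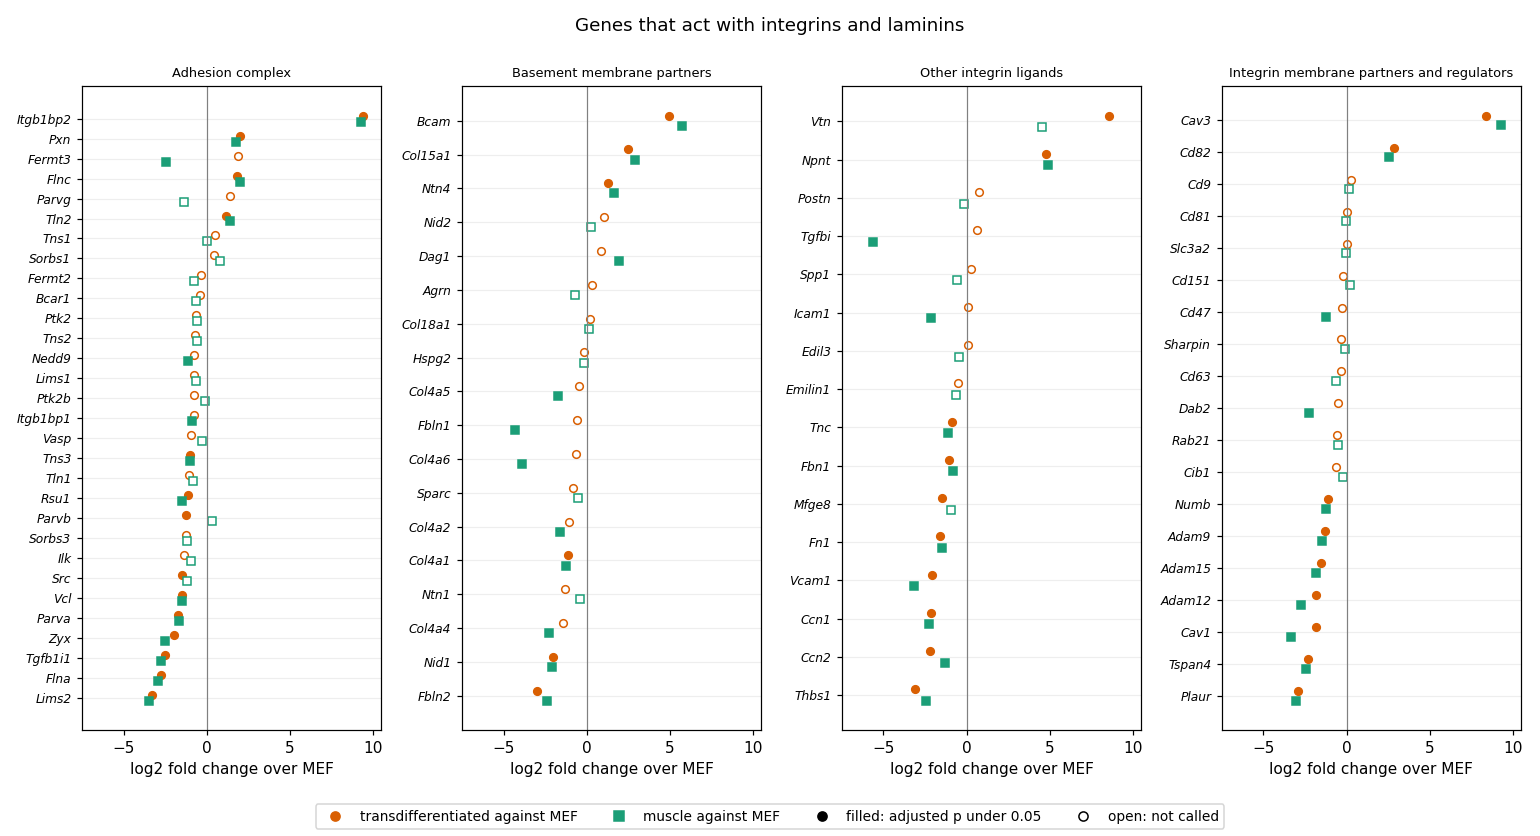
Log2 fold change over MEF of tested genes of the 4 lists in transdifferentiated cells (circles) and muscle (squares), filled where the edgeR BH-adjusted p was under 0.05. Itgb1bp2, Bcam, Npnt and Cav3 stand far to the right in both, most called genes of the adhesion complex lie left of 0, and the position of Vtn rests on 0 counts in MEF.

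The authors' deposited table of their own comparison lists 8 of the 37 subunits. Every gene in that table had an absolute log2 fold change of at least 2 and an adjusted p under 0.05 there. Subunits with smaller changes could therefore be missing from it, and its 8 subunits cannot be set against the number called here. Itga4, Itga11 and Lamc3 are missing too, although they were called in muscle against MEF here with log2 fold changes of 2.35, -2.08 and 2.52. The reason was not tested. The table holds the same counts as those fitted here, so its values are not independent of these results. Its header names no contrast, and its sign was opposite to that of muscle against MEF here in all 2645 of its genes tested here, so it reads as MEF over muscle. In the authors' deposited table Itgb6 had a log2 fold change of -8.91, Itga7 -5.95 and Lamb3 -5.19 on that reading, and Itga8 had 5.23, Itgb2 3.16, Itga1 2.63 and Lama4 2.06. The eighth was Itgad (-3.98), which did not pass the count filter here.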

How the data were processed

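Polyadenylated RNA libraries (Lexogen SENSE V2) were read as single ends of 75 bp, per the labels' protocols. The authors deposited whole-number counts per gene symbol, not normalized. The submitters' processing notes list, with no role for any, the mm10 build, DESeq2 1.26.0, featureCounts 1.6.2, HISAT2 2.1.0 and Trim Galore 0.6.0. The authors also deposited a table of log2 fold changes with p-values and adjusted p-values, per the file headers, and a mean signal per gene that was not used. No source used here gives the annotation or the strand setting.

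Counts were fitted in R 4.3.3 with edgeR 4.0.16: filterByExpr by group, TMM, and a robust quasi-likelihood model with group as its only term over all 6 libraries (3 residual degrees of freedom), Benjamini-Hochberg adjusted over 17400 genes. The SE is the log2 fold change over the square root of F. The fit was tested on simulated data. CPM are relative to library totals times TMM factors; a count of 0 allows up to 3 counts, 0.128 to 0.183 CPM. Coordinates and merged exon lengths are from GENCODE M21 (GRCm38), promoters from RefSeq (GRCm38.p6).

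Named genes are the subunits and, per list and comparison, the 3 called genes with the smallest adjusted p and, of genes called against the majority of a list, the one with the smallest adjusted p. Genes marked as chosen after their values were seen are exceptions, and a few genes, which the counts include, are not reported here by name. The subunits and lists were chosen with earlier results of these data known. Alternatives were other scalings and filters, DESeq2 1.42.0, fits of the 4 libraries compared, a replicate block and leaving out each library.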

Additional observations from a re-analysis of the deposited data

How the results depend on the processing

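Of the 43 calls made on the subunits in the 3 comparisons, 26 were kept in every alternative run and 0 turned sign. In transdifferentiated cells against MEF 11 of 16 were kept, in muscle against MEF 12 of 19 and in transdifferentiated cells against muscle 3 of 8. Leaving out 1 library gave 8 to 11 higher and 3 to 5 lower subunits in transdifferentiated cells against MEF, 7 to 13 and 6 to 9 in muscle against MEF, and 3 to 6 and 0 to 3 in transdifferentiated cells against muscle. For the 4 lists of other genes these ranges were 9 to 14 and 19 to 36 (11 and 29 with all libraries), 10 to 12 and 23 to 40 (11 and 38), and 4 to 15 and 0 to 4 (10 and 1). In transdifferentiated cells against muscle the list counts were 16 and 4 with no filter, and the lower count was 2 with library totals alone, 2 with only the 4 libraries compared and 3 with DESeq2. With the replicate block the lower count of subunits was 1 and the higher count of list genes 6 in that comparison. Same-numbered libraries deviated together in muscle and MEF (r = 0.476 across genes) and against each other in transdifferentiated cells and MEF (-0.706) and transdifferentiated cells and muscle (-0.432). Libraries of the same number thus did not deviate together in all 3 groups. The check uses only the difference between replicates 1 and 2 of each group, so it cannot tell whether samples were paired. No scaling moved the median of all genes by more than 0.084 on the log2 scale.

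Subunits that were not called turned sign as follows, with the ends of the range over left-out libraries. Against MEF in transdifferentiated cells, Itga3 ran from -0.67 without Transdifferentiated replicate 2 (-0.14 without MEF replicate 2) to 0.68, Itgb1 from -0.20 without MEF replicate 1 (-0.10 without Transdifferentiated replicate 1) to 0.46, Lama1 from -0.46 to 0.09 without Transdifferentiated replicate 1, and Itgae from -1.02 to 3.75 without MEF replicate 1 (0.45 without Transdifferentiated replicate 2, 0.02 with library totals alone, 0.07 with the replicate block). In muscle against MEF, Itga2 ran from -0.11 without Muscle replicate 1 to 0.43, Itgb1 from -0.39 to 0.27 without MEF replicate 2, and Lamb2 from -0.08 without MEF replicate 2 or Muscle replicate 1 to 0.36. Between transdifferentiated cells and muscle, Itga2b ran from -0.77 to 0.28 without Transdifferentiated replicate 1 (0.01 without Muscle replicate 2), Itgav from -0.44 to 0.09 without Muscle replicate 2, Itgb1 from -0.01 without Transdifferentiated replicate 1 to 0.36, Itgb5 from -0.47 to 0.23 without Muscle replicate 1 (0.19 without Transdifferentiated replicate 1), Lama2 from -0.18 to 0.00 without Muscle replicate 1, Lama5 from -0.86 to 0.21 without Transdifferentiated replicate 1, Lamb3 from -0.15 without Transdifferentiated replicate 2 to 0.56, and Lamc3 from -0.09 without it to 0.48. The cause was not tested. A fit without 1 library assumes that the lone sample of its group varies like the others.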
